A study of Mus musculus with 6 samples.

Results

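The genes described here are 30 markers of neural stem cells, radial glia and astrocytes, read in the RNA of a mouse glioblastoma line with and without targeting of Bcat1. They are 10 stem or radial glia genes (Fabp7, Nes, Vim, Prom1, Nr2e1, Msi1, Msi2, Cd44, Tnc and Hopx) and 20 genes of mature astrocytes, chosen by name, and each matched 1 of the 49585 genes in the deposited tables. The libraries came from mGB2 cells, which the labels call glioblastoma stem cells, in 2 groups of 3 libraries. One group is of genotype Bcat1-KO and the other, named NT in the design text, is of genotype Control. All 6 were untreated and grown attached to a coated plate in medium with N2, B27, EGF and FGF until confluent. Whether the knockout is 1 clone or a pool, and whether replicates were separate cultures, the sources used here do not say, so each p reflects how these 6 libraries vary, and that variation may be technical. Bcat1 encodes the cytosolic enzyme that moves the amino group of branched-chain amino acids to 2-oxoglutarate.

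Radial glia are the stem cells of the developing brain. They line the ventricle, divide to give neurons and later become astrocytes, and glioblastoma cells often carry their genes. Astrocytes take up glutamate and potassium, move water and ions and secrete lipoproteins, and the filament Gfap and the water channel Aqp4 are among their defining proteins.

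The libraries held 29543157 to 37800648 reads counted on the strand of the gene. The table gave a test for 14020 genes, of which 8735 (62.3%) changed between knockout and control at an adjusted p under 0.05, 4480 (32.0%) higher and 4255 (30.3%) lower (edgeR quasi-likelihood test, Benjamini-Hochberg adjustment). So many genes changed that a count of changed markers has to be read against those shares. Bcat1 itself had 155, 176 and 173 CPM (counts relative to the library total, scaled between libraries by the TMM method) in the knockout libraries and 214, 223 and 232 CPM in the control libraries (log2 fold change -0.41, SE 0.07, adjusted p = 0.000355). Its counts cover the whole gene and the edited site is not stated, so this level does not check the labels. Bcat1-KO replicate 1 stood apart from the other knockout libraries: its log2 CPM correlated at 0.992 and 0.993 with theirs, across genes, against 0.996 between those. Among the 28 markers that could be tested it was the highest knockout library for 18 and the lowest for 9. Results of the markers that rest on it are given without it. In bulk RNA, fewer cells of a type and less RNA per cell cannot be told apart.

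Of the 10 stem and radial glia genes, 7 were higher in the knockout, 1 was lower and 2 did not pass the test. Of the 20 astrocyte genes 18 could be tested, and 12 were higher, 3 lower and 3 not past the threshold. The median log2 fold change was 0.56 for the stem genes and 0.95 for the astrocyte genes, beside 0.01 over all genes tested. By at least 2-fold, 4 stem genes and 7 astrocyte genes were higher, and 0 and 2 were lower, where 9.76% and 9.43% of all genes tested were higher and lower by that much. Without Bcat1-KO replicate 1 the counts were 6 higher and 1 lower for the stem genes and 12 higher and 2 lower for the astrocyte genes, beside 65.6% of all genes tested that changed (32.3% higher, 33.3% lower). Prom1, Aqp4 and Gpr37l1 passed the filter on low counts only through the knockout libraries, so they had to differ. Hopx and Agt, with 1 control library at its level, also needed the knockout libraries to pass. These counts are therefore a description of the list. The ranges of the 2 groups were apart for 8 of the 10 stem genes and 16 of the 18 tested astrocyte genes, as for 67.7% of all genes tested.

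**Figure D1:**
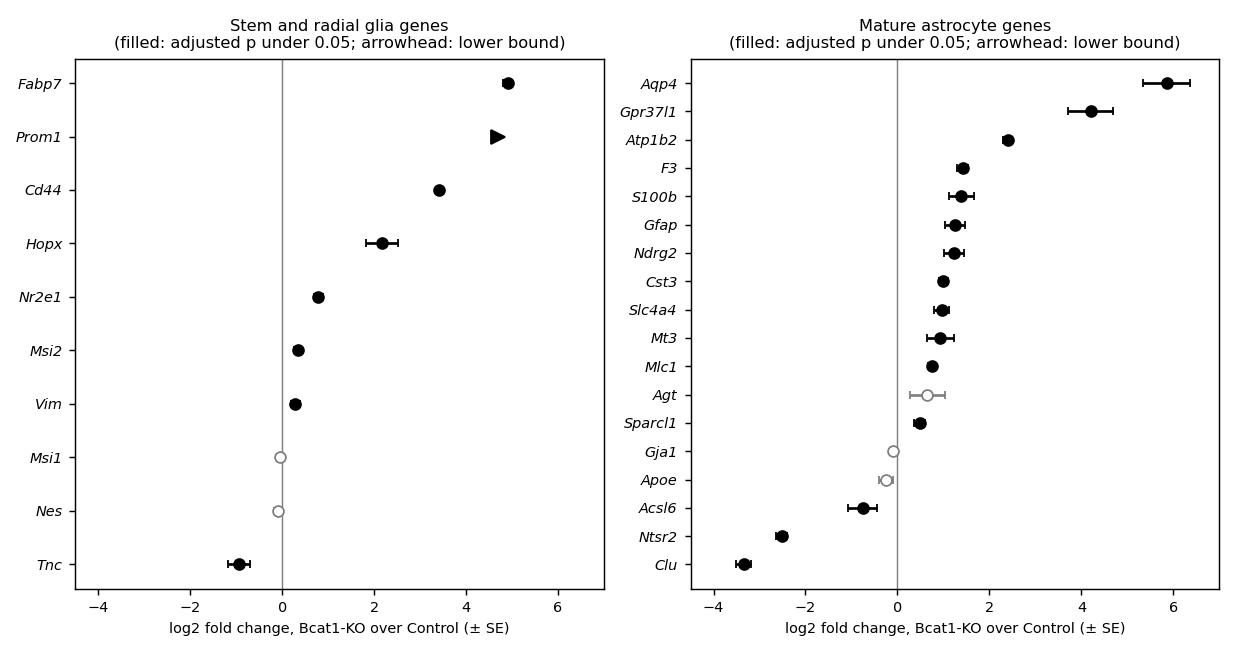
Log2 fold change of each tested marker, Bcat1-KO over Control, with its standard error, for 10 stem and radial glia genes at left and 18 astrocyte genes at right. Filled points passed the threshold, the arrowhead of Prom1 is a lower bound, and the values run from -0.93 for Tnc to 4.90 for Fabp7 at left and from -3.34 for Clu to 5.85 for Aqp4 at right.

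Fabp7, the brain fatty acid binding protein that marks radial glia (ENSMUSG00000019874.11, chromosome 10 from 57784881 to 57788450, mm10), changed most among the stem genes that were present in both groups. It had 192, 185 and 187 CPM in the knockout libraries and 5.76, 7.53 and 5.51 CPM in the control libraries. All knockout libraries lay within a narrow range far above the control (log2 fold change 4.90, SE 0.11, adjusted p = 9.3e-12). Per length, in TPM (transcript units that allow for gene length), Fabp7 ranked 2 among the 30 markers in the knockout, at 492 ± 1.54 TPM, and 14 in the control, at 15.8 ± 2.65 TPM (SD, n = 3 each).

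Cd44, the hyaluronan receptor that is also a marker of mesenchymal glioblastoma cells (ENSMUSG00000005087.17, chromosome 2 from 102811141 to 102901665), had 173, 152 and 158 CPM in the knockout libraries and 15.42, 15.03 and 15.01 CPM in the control libraries. Its groups were apart by a ratio of 10.6 (log2 fold change 3.41, SE 0.07, adjusted p = 9.3e-12). Hopx, a small homeodomain protein of outer radial glia in the human cortex, was rare, with 1.63, 0.962 and 0.908 CPM in the knockout libraries and 0.191, 0.301 and 0.275 CPM in the control libraries. The knockout libraries were all above the control ones, with replicate 1 highest (log2 fold change 2.17, and 1.83 without that library). These values are a description with no test, since the control libraries of Hopx alone would not pass the filter. Prom1, which encodes the stem cell surface protein CD133, was read only in the knockout, with 29, 32 and 31 counts per library and 0.829 ± 0.0248 CPM (SD, n = 3), while the 3 control libraries held 0 counts. With the control group set at 3 counts in all, Prom1 was at least 25.9-fold higher in the knockout, given as a description with no test since it passed the filter through the knockout alone. That limit covers counting error only, and Prom1 stayed below 1 CPM in every library.

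The intermediate filament genes that define neural progenitors showed small differences. Nestin (Nes) had 244, 220 and 259 CPM in the knockout libraries and 258, 249 and 267 CPM in the control libraries. The groups overlapped and the difference did not pass (log2 fold change -0.10, SE 0.07, adjusted p = 0.275). Vimentin (Vim), the most abundant of the 30 markers per length in both groups, had 971, 728 and 815 CPM in the knockout libraries and 660, 720 and 683 CPM in the control libraries. The lowest knockout library was just above the highest control one (log2 fold change 0.29, SE 0.10, adjusted p = 0.0273). Without Bcat1-KO replicate 1 the change was 0.15 and did not pass (adjusted p = 0.0813), nor did it without control replicate 1, 2 or 3 (0.106, 0.0527 and 0.0835).

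Of the RNA-binding proteins Msi1 and Msi2, which control the translation of their target messages, Msi2 rose. Msi1 averaged 141 ± 8.28 CPM in Bcat1-KO and 145 ± 8.06 CPM in Control and did not pass (adjusted p = 0.637). Msi2 averaged 187 ± 23.9 CPM in Bcat1-KO and 148 ± 3.52 CPM in Control (log2 fold change 0.34, SE 0.09, adjusted p = 0.00539). Tnc, the matrix glycoprotein tenascin C of the stem cell niche, was the 1 stem gene that fell. It had 240, 459 and 597 CPM in the knockout libraries and 773, 795 and 906 CPM in the control libraries, so the knockout libraries spread widely, all below the control (log2 fold change -0.93, SE 0.24, adjusted p = 0.00486, and -0.66 without Bcat1-KO replicate 1).

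**Figure D2:**
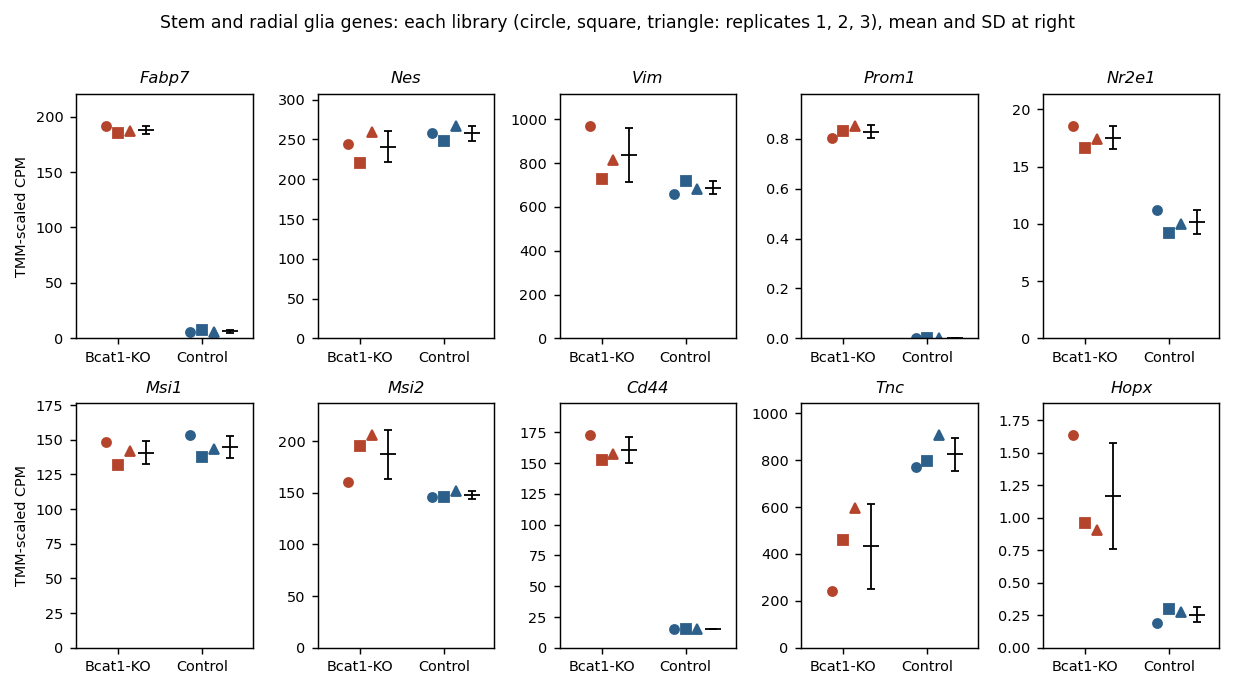
TMM-scaled CPM of the 10 stem and radial glia genes in each library, Bcat1-KO at left and Control at right of each panel, on axes that start at 0, with the mean and SD of 3 libraries beside the points. Fabp7 and Cd44 stand far above the control in every knockout library, Nes and Msi1 overlap, and the knockout libraries of Tnc spread from 240 to 597 CPM.

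Nr2e1 encodes Tlx, an orphan nuclear receptor that keeps adult neural stem cells dividing, and its result depended on the strand that was read. On the strand of the gene, which was used throughout, it held 670, 640 and 632 counts in the knockout libraries and 353, 304 and 291 in the control libraries, or 17.5 ± 0.971 CPM in Bcat1-KO and 10.1 ± 1.04 CPM in Control (log2 fold change 0.79, SE 0.11, adjusted p = 4.72e-05). On the opposite strand the order was turned round, with 119, 184 and 168 counts in the knockout libraries and 363, 396 and 358 in the control libraries. Opposite-strand reads were 19.5% of all Nr2e1 reads in the knockout and 54.1% in the control. In a fit of the opposite-strand counts over 4891 genes, of which 1661 (34.0%) changed and 16.2% were higher and 17.7% lower, Nr2e1 had a log2 fold change of -1.47 with an SE of 0.13 (adjusted p = 2.14e-08). With the strands put together the gene held 789, 824 and 799 counts in the knockout libraries and 716, 700 and 649 in the control libraries, and no difference passed (log2 fold change -0.01, adjusted p = 0.901).

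The opposite-strand counts were looked at after the data were seen. No other gene in the deposited tables overlaps Nr2e1 (chromosome 10 from 42561963 to 42583632, minus strand). The nearest beyond its 5′ end is Ostm1, on the plus strand and 190 bases away, and RefSeq places a noncoding RNA gene, Gm38491, at 160 bases. Among the 7 markers with enough opposite-strand counts for a test, Atp1b2 and Ntsr2 also had fewer on that strand in the knockout. Ntsr2 had 1, 2 and 4 such counts in the knockout libraries and 12, 11 and 13 in the control libraries. Ntsr2 therefore passed the filter on that strand through the control alone, and its fall there is a description with no test. Atp1b2 had 52, 77 and 83 opposite-strand counts in the knockout libraries and 189, 181 and 145 in the control libraries, or 1.06% of its reads in the knockout and 14.0% in the control (log2 fold change -1.50, SE 0.17, adjusted p = 5.33e-07), against a rise on its own strand. For Ntsr2 the opposite-strand share was 0.32% in the knockout and 0.342% in the control, so those reads moved with the gene.

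**Figure D3:**
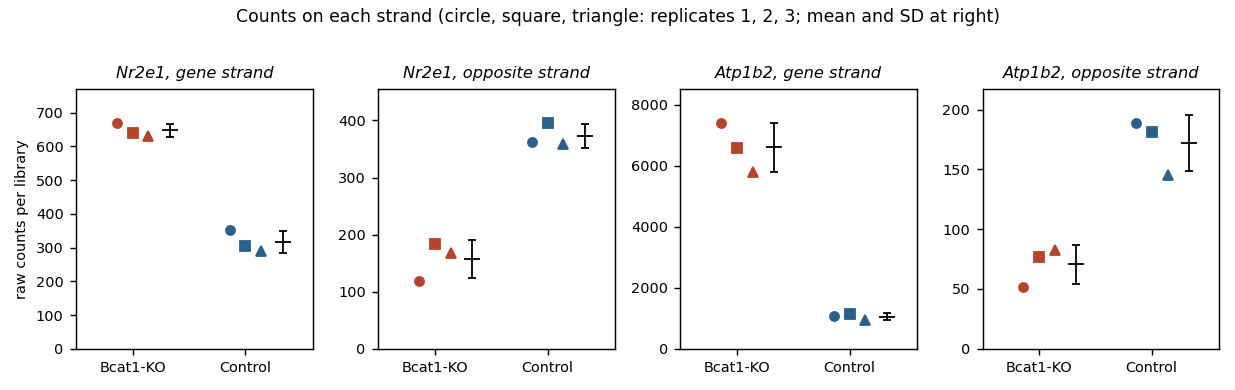
Raw counts of Nr2e1 and Atp1b2 on the strand of the gene and on the opposite strand in each library, Bcat1-KO at left and Control at right, with the mean and SD of 3 libraries. On the gene strand the knockout is above the control for both genes, and on the opposite strand it is below, with 119 to 184 against 358 to 396 counts for Nr2e1.

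Fabp7 and Ntsr2 changed most in each direction among the markers that had a start window and reads in both groups. Nr2e1 is the gene read on both strands, and F3 holds paired AP-1 motifs. Sequences around the starts of these 4 markers are shown, and no result above rests on them. They run from 250 bases before to 50 after the start, 5′ to 3′ on the strand of the gene, from RefSeq (GRCm38.p6), at chr10:57784673-57784972 (plus), chr10:42583541-42583840 (minus), chr3:121723287-121723586 (plus) and chr12:16653220-16653519 (plus). The starts lie 42, 42, 0 and 0 bases from those of the deposited tables. Capitals mark matches on either strand to the motifs listed after them.
Fabp7: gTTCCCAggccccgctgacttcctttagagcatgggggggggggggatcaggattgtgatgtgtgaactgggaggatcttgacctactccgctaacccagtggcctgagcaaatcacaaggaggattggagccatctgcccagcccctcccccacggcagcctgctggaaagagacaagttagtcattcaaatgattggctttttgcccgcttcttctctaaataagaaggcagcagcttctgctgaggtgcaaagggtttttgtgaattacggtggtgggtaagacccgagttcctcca
Nr2e1: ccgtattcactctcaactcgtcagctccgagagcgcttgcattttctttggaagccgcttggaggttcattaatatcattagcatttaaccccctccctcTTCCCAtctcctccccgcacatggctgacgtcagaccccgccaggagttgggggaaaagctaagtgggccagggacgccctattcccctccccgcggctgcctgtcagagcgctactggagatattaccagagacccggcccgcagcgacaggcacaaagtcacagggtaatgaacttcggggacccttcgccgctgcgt
F3: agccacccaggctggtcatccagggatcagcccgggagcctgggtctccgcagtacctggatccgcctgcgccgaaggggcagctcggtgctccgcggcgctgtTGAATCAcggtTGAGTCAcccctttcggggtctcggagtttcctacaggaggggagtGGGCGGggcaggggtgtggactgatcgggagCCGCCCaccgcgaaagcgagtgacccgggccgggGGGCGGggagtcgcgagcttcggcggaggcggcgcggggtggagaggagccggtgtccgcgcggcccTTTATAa
Ntsr2: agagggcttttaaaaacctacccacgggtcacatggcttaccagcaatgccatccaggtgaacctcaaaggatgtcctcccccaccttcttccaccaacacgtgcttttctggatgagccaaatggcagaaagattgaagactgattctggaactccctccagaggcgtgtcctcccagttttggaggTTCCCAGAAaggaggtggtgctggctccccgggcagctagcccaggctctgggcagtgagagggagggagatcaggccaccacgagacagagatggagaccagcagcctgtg
The motifs searched were the RBPJ motif of Notch signalling (TGGGAA), the AP-1 motif (TGANTCA), the STAT motif (TTCNNNGAA), the palindromic NFI motif, a SOX motif (ACAATG), the GC box (GGGCGG) and the TATA box (TATAAA). Fabp7 had an RBPJ match at -249 from the start, Nr2e1 at -150 and Ntsr2 at -62, where it overlaps a STAT match. F3 had AP-1 matches at -146 and -135 besides 3 GC boxes, at -89, -58 and -24, and a TATA match at 44. Windows were found for 25 of the 30 markers, 37 windows in all since some genes have several that can overlap. An RBPJ match was found in 15 of the 37 (40.5%) and in 25.6% of all 32851 windows, a GC box in 18 (48.6%) and in 35.7%, an AP-1 match in 5 (13.5%) and in 7.81%, a STAT match in 3 (8.11%) and in 8.3%, a TATA match in 7 (18.9%) and in 13.6%, a SOX match in 1 (2.7%) and in 12.6% and an NFI match in 0 and in 0.0365%. These matches are letters in a window and say nothing of binding.

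The astrocyte genes were divided by level: Gfap, Aqp4, S100b, Aldh1l1 and Gjb6 stayed below 6 CPM in every library, while Gja1, Sparcl1, Mlc1, Ndrg2 and Atp1b2 averaged over 30 CPM in both groups. Gfap, the glial filament (ENSMUSG00000020932.14, chromosome 11 from 102887336 to 102900912), had 2.24, 1.72 and 1.84 CPM in the knockout libraries and 0.700, 0.964 and 0.757 CPM in the control libraries. It was higher in every knockout library (log2 fold change 1.25, SE 0.22, adjusted p = 0.00045) from 214 counts over the knockout and 76 over the control. S100b, a calcium-binding protein, had 1.83, 1.87 and 1.84 CPM in the knockout libraries and 0.477, 1.02 and 0.585 CPM in the control libraries (log2 fold change 1.39, SE 0.27, adjusted p = 0.000721). Aldh1l1, a folate enzyme used as a pan-astrocyte marker, had 0.277, 0.312 and 0.413 CPM in the knockout libraries and 0.191, 0.211 and 0.241 CPM in the control libraries. The 37 knockout and 20 control counts of Aldh1l1 were too few for the test, and Gjb6, connexin 30, was at 0 in all 6 libraries. So Gfap, S100b and Aldh1l1 stayed below 3 CPM in every library of both groups.

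Aqp4, the water channel of astrocyte endfeet (ENSMUSG00000024411.9, chromosome 18 from 15389394 to 15403684), had 5.98, 2.75 and 2.97 CPM in the knockout libraries and 0.0318, 0.0904 and 0.0688 CPM in the control libraries, which held 6 counts in all. Aqp4 and Gpr37l1 passed the filter through the knockout alone, so their changes are a description with no test. The change of Aqp4 was 5.85 on the log2 scale, and 5.38 without Bcat1-KO replicate 1, the highest library. Gpr37l1, an orphan receptor of astrocytes, had 2.69, 1.64 and 1.18 CPM in the knockout libraries and 0.0318, 0.121 and 0.138 CPM in the control libraries, from 9 counts (log2 fold change 4.20, and 3.81 without that library). Both were near the limit of counting in the control and at a few CPM in the knockout.

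Atp1b2, Ndrg2 and F3 were also at least 2-fold higher in the knockout. Atp1b2, the glial beta subunit of the sodium pump (chromosome 11 from 69599736 to 69605942), had 205, 171 and 160 CPM in the knockout libraries and 34.4, 34.8 and 32.1 CPM in the control libraries (log2 fold change 2.40, SE 0.09, adjusted p = 1.08e-09). Ndrg2, a cytoplasmic protein whose loss is known in glioma, had 120, 67.6 and 56.1 CPM in the knockout libraries and 35.9, 35.0 and 32.5 CPM in the control libraries. Replicate 1 was far above the other knockout libraries of Ndrg2, and the change was 1.23 on the log2 scale with an SE of 0.22 (adjusted p = 0.000379), or 0.82 without it. F3, the coagulation initiator tissue factor, had 14.9, 18.1 and 18.3 CPM in the knockout libraries and 6.74, 5.78 and 6.64 CPM in the control libraries (log2 fold change 1.42, SE 0.12, adjusted p = 9.59e-07).

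Of the other astrocyte genes that rose, Cst3, the protease inhibitor cystatin C, averaged 56.0 ± 8.2 CPM in Bcat1-KO and 28.1 ± 2.38 CPM in Control (a ratio of 1.996, adjusted p = 6.62e-06). Mlc1, a membrane protein of endfeet, averaged 85.6 ± 10.7 CPM in Bcat1-KO and 50.9 ± 1.51 CPM in Control (log2 fold change 0.75, adjusted p = 1.34e-05). Slc4a4, a sodium bicarbonate cotransporter, averaged 4.25 ± 0.656 CPM in Bcat1-KO and 2.18 ± 0.12 CPM in Control (log2 fold change 0.96, adjusted p = 0.000402). Replicate 1 weighed on the matrix protein gene Sparcl1 and on the metallothionein gene Mt3. Sparcl1 had 259, 180 and 178 CPM in the knockout libraries and 152, 156 and 137 CPM in the control libraries, with a log2 fold change of 0.48 (adjusted p = 0.00641) that was 0.26 without that library. Mt3 had 5.18, 2.52 and 2.37 CPM in the knockout libraries and 1.84, 1.90 and 1.51 CPM in the control libraries, with a change of 0.93 on the log2 scale (adjusted p = 0.0154) that was 0.46 without it. Mt3 did not pass without control replicate 1 or 3 (adjusted p = 0.0507 and 0.0523).

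The genes that fell were Ntsr2, Clu and Acsl6. Ntsr2, a neurotensin receptor of astrocytes (ENSMUSG00000020591.10, chromosome 12 from 16653470 to 16660236), had 16.3, 23.6 and 18.7 CPM in the knockout libraries and 122, 108 and 105 CPM in the control libraries (log2 fold change -2.52, SE 0.12, adjusted p = 5.08e-09). Per length it ranked 14 among the 30 markers in the knockout, at 41.5 ± 8.5 TPM, and 3 in the control, at 229 ± 19.7 TPM. Clu, the secreted chaperone clusterin (ENSMUSG00000022037.14, chromosome 14 from 65968483 to 65981548), had 1.66, 1.09 and 1.21 CPM in the knockout libraries and 12.7, 13.1 and 14.4 CPM in the control libraries, a 10.1-fold fall (log2 fold change -3.34, SE 0.16, adjusted p = 6.74e-09). Acsl6, which activates long fatty acids, was at 0.923 ± 0.312 CPM in Bcat1-KO and 1.57 ± 0.518 CPM in Control, with overlapping groups (log2 fold change -0.76, adjusted p = 0.0485). It did not pass without Bcat1-KO replicate 1 or 3 (adjusted p = 0.103 and 0.0731), or without control replicate 2 or 3 (0.0847 and 0.217), where the last gave a log2 fold change of -0.49. Nor did it pass with a gene length offset (0.0584), DESeq2 (0.0514), limma-voom (0.058), limma-trend on log2(TPM + 1) (0.128) or a test against a 1.5-fold change (0.426).

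The gap junction gene Gja1, connexin 43, the lipoprotein gene Apoe and the angiotensinogen gene Agt did not pass. Gja1 averaged 103 ± 1.33 CPM in Bcat1-KO and 110 ± 3.16 CPM in Control (log2 fold change -0.09, SE 0.06, adjusted p = 0.214), so its knockout libraries were all slightly lower. Apoe averaged 13.8 ± 3.09 CPM in Bcat1-KO and 16.3 ± 2.55 CPM in Control (log2 fold change -0.25, adjusted p = 0.204), and single libraries moved it both ways. It was -0.10 without Bcat1-KO replicate 1 (adjusted p = 0.462) and -0.13 without control replicate 1 (adjusted p = 0.576). Without Bcat1-KO replicate 2, its highest knockout library, Apoe passed as lower (log2 fold change -0.41, adjusted p = 0.0482). Agt stayed below 0.5 CPM in every library and differed by 0.65 on the log2 scale with an SE of 0.38 (adjusted p = 0.153).

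**Figure D4:**
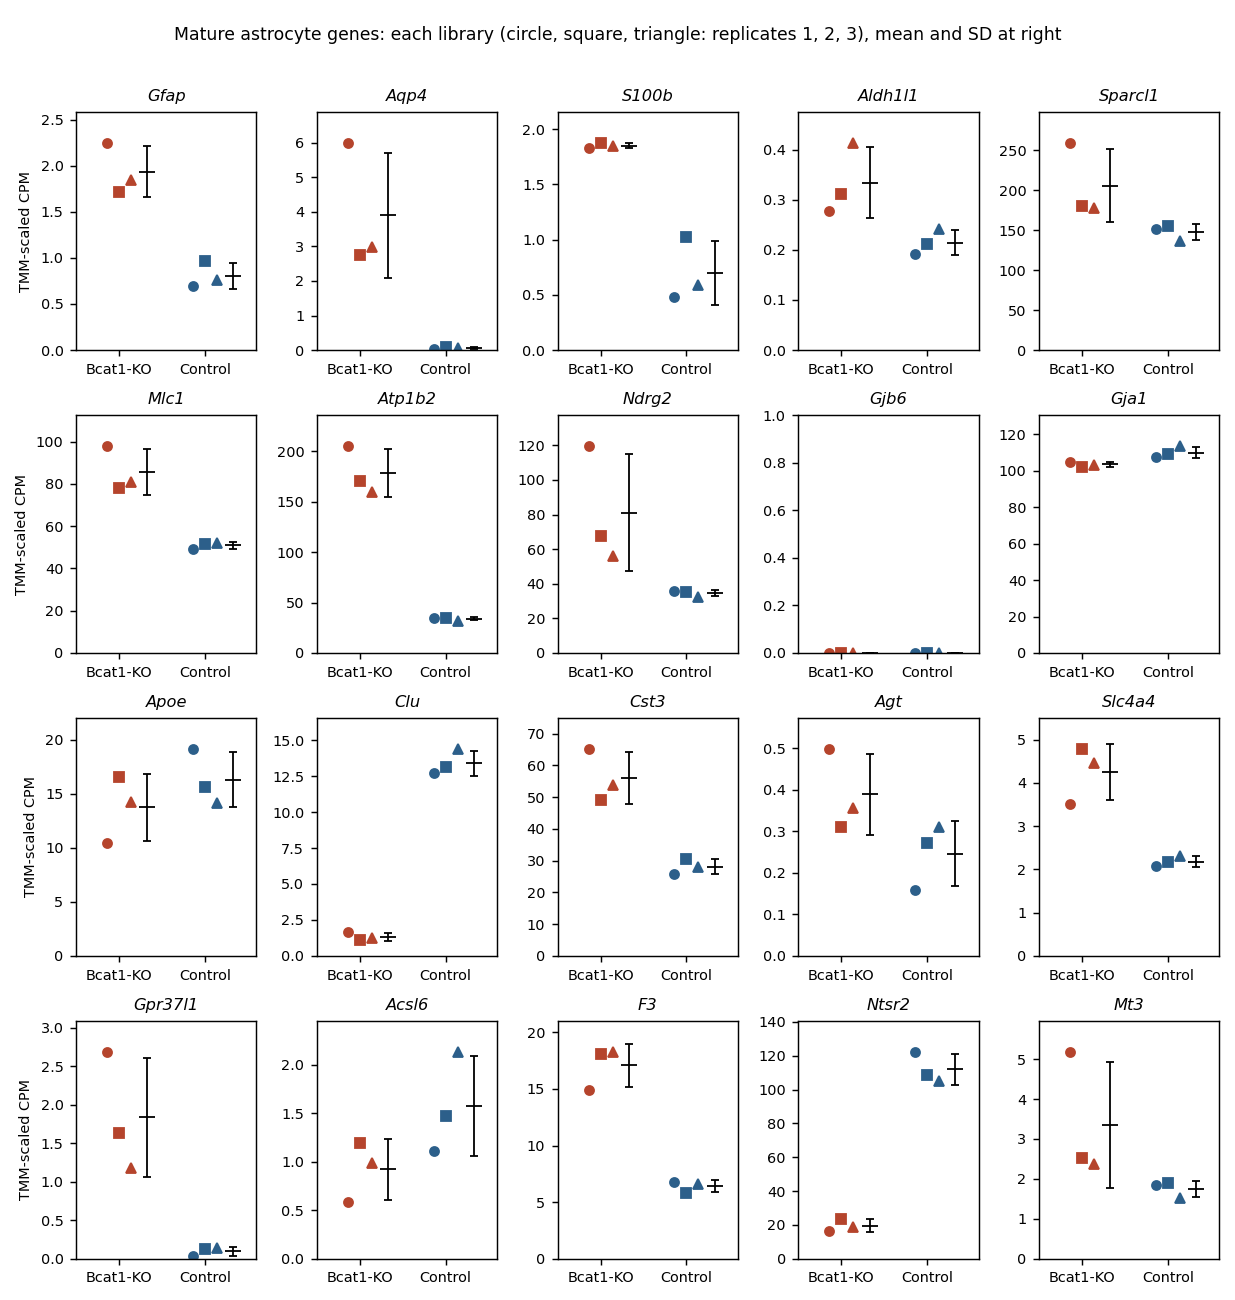
TMM-scaled CPM of the 20 astrocyte genes in each library, Bcat1-KO at left and Control at right of each panel, on axes that start at 0, with the mean and SD of 3 libraries. Bcat1-KO replicate 1, the circle, is apart for Aqp4, Ndrg2, Sparcl1 and Mt3, Clu and Ntsr2 are lower in every knockout library, and Gjb6 is at 0.

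Summed per library, the 10 stem genes came to 1540 to 1688 TPM in the knockout and 1046 to 1111 TPM in the control. In CPM the stem genes overlapped, at 2090 to 2382 in the knockout and 2022 to 2183 in the control, and Fabp7 alone differed by 492 against 15.8 TPM. The 20 astrocyte genes came to 866 to 1108 TPM in the knockout and 731 to 782 TPM in the control, or 701 to 917 CPM in the knockout and 543 to 572 CPM in the control. Libraries varied more within the knockout, where the median coefficient of variation of the 28 tested markers was 14.7%, than within the control, where it was 8.24%.

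Other genes of the same cell types were read from lists chosen with earlier results of these data known, and each count stands beside 32.0% higher and 30.3% lower (62.3% in all) among all genes tested. Of 25 tested of 28 other stem and radial glia genes, 17 rose and 6 fell, and their median log2 fold change was 0.60. The transcription factor gene Sox3 averaged 60.6 ± 5.67 CPM in Bcat1-KO and 4.89 ± 0.803 CPM in Control (log2 fold change 3.63, adjusted p = 2.35e-10). Ednrb, an endothelin receptor of radial glia, averaged 5.53 ± 1.47 CPM in Bcat1-KO and 0.371 ± 0.154 CPM in Control. Its log2 fold change of 3.88 is given with no test, since its control libraries alone would not pass the filter. In the other direction Pou3f2, a neural POU factor, averaged 1.74 ± 0.185 CPM in Bcat1-KO and 17.8 ± 1.25 CPM in Control (log2 fold change -3.35, adjusted p = 1.03e-09). Ptprz1 and Hes5, with log2 fold changes of 3.37 and 3.22 (adjusted p = 1.43e-09 and 1.64e-09), were the others of the 5 that changed most at a mean log2 CPM of at least 0. Dach1, below that level, had 3.46, given with no test since it passed the filter through the knockout alone.

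Of 20 tested of 30 other astrocyte genes, 14 rose and 4 fell, where 32.0% and 30.3% of all genes tested did so, and the median was 0.55. Acsbg1, an acyl-CoA synthetase, averaged 192 ± 15.1 CPM in Bcat1-KO and 41.5 ± 1.05 CPM in Control (log2 fold change 2.21, adjusted p = 2.68e-10). Tril, a Toll-like receptor accessory protein, averaged 22.6 ± 2.26 CPM in Bcat1-KO and 3.29 ± 0.61 CPM in Control (log2 fold change 2.78, adjusted p = 9.39e-09). S1pr1, a sphingosine-phosphate receptor, averaged 5.79 ± 0.85 CPM in Bcat1-KO and 0.602 ± 0.0881 CPM in Control (log2 fold change 3.26, adjusted p = 6.93e-08). The glutamate transporter gene Slc1a2 and the metallothionein gene Mt2 had log2 fold changes of 4.06 and 2.68 (adjusted p = 1.2e-09 and 2.64e-08). The 4 that fell were named after their values were seen. Cbs, the enzyme cystathionine beta-synthase, averaged 136 ± 15 CPM in Bcat1-KO and 415 ± 8.4 CPM in Control (log2 fold change -1.60, adjusted p = 1.35e-08). Htra1, a secreted protease, averaged 34.3 ± 2.17 CPM in Bcat1-KO and 92.0 ± 7.02 CPM in Control (log2 fold change -1.42, adjusted p = 1.87e-08). Pla2g7 had 1 count over the knockout and 148 over the control, and Slc14a1 had 6 and 69, so both passed the filter through the control alone. Hepacam, among those that rose, passed it through the knockout alone.

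Genes that astrocytes induce on injury or inflammation were mostly lower, with 10 of 14 tested of 20 listed lower, 2 higher and a median of -1.47, where 30.3% of all genes tested were lower and 32.0% higher. Among those lower, Lcn2, Steap4, Osmr and Ptgs2 passed the filter through the control alone. They had to be lower, so the count and median are a description of the list. Lcn2, the iron carrier lipocalin 2, averaged 0.135 ± 0.0227 CPM in Bcat1-KO and 9.55 ± 1.05 CPM in Control, a log2 fold change of -6.10 given with no test since it passed the filter through the control alone. The complement gene C3 averaged 0.430 ± 0.101 CPM in Bcat1-KO and 3.24 ± 0.591 CPM in Control (log2 fold change -2.90, adjusted p = 1.06e-06). The ceruloplasmin gene Cp averaged 36.0 ± 5.17 CPM in Bcat1-KO and 102 ± 5.78 CPM in Control (log2 fold change -1.50, adjusted p = 9.61e-08). Timp1, a protease inhibitor, averaged 4.24 ± 0.127 CPM in Bcat1-KO and 12.3 ± 0.408 CPM in Control (log2 fold change -1.54, adjusted p = 2.34e-07). S100a10, an annexin partner, was higher, at 42.5 ± 11.1 CPM in Bcat1-KO and 15.1 ± 2.16 CPM in Control (log2 fold change 1.49, adjusted p = 1e-05). Bcat1-KO replicate 1 weighed on S100a10, with 55.2 CPM against 37.2 and 35.0 CPM in the other knockout libraries. The chemokine gene Cxcl10 was the other that was higher. Its log2 fold change of 1.27 is given with no test, since its control libraries alone would not pass the filter.

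Transcription factors and signal carriers that drive astrocyte formation were divided, with 8 higher and 7 lower of 18 tested of 20, and a median of 0.07, where 32.0% and 30.3% of all genes tested were higher and lower. Among those higher, Neurod1 passed the filter through the knockout alone. Sall3, a zinc finger factor, averaged 184 ± 14.3 CPM in Bcat1-KO and 57.8 ± 2.46 CPM in Control (log2 fold change 1.67, adjusted p = 3.11e-09). Olig2, a factor of glial progenitors, averaged 563 ± 59.5 CPM in Bcat1-KO and 268 ± 11.0 CPM in Control (log2 fold change 1.07, adjusted p = 5.97e-07). Id3, an inhibitor of basic helix-loop-helix factors, averaged 18.9 ± 6.28 CPM in Bcat1-KO and 8.32 ± 1.03 CPM in Control (log2 fold change 1.18, adjusted p = 0.000276). Bcat1-KO replicate 1 weighed on Id3, with 26.2 CPM against 14.8 and 15.9 CPM in the other knockout libraries. Nfib and Zbtb20, factors that promote astrocyte differentiation, were lower, with log2 fold changes of -0.90 and -1.02 (adjusted p = 9.73e-07 and 5.74e-06).

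**Figure D5:**
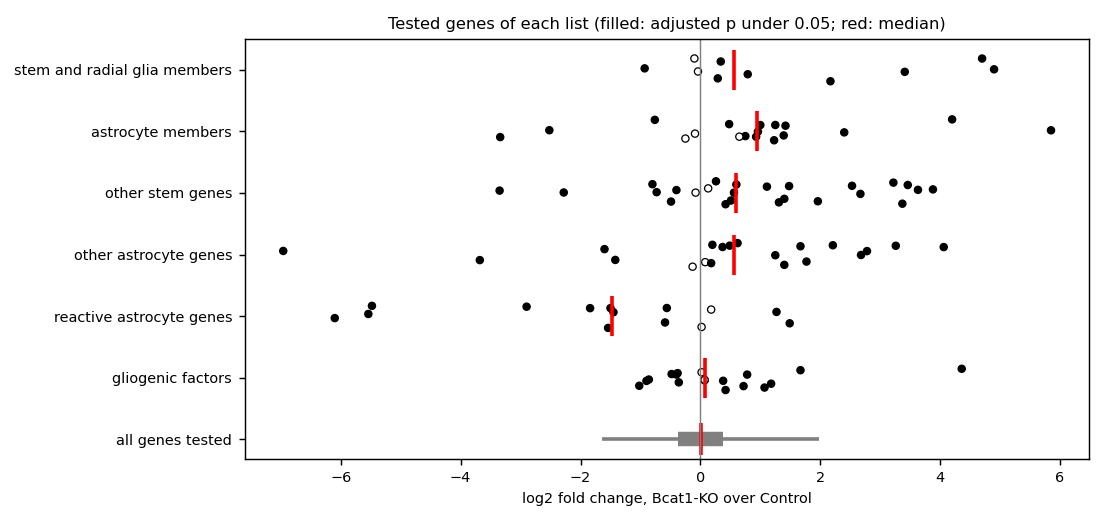
Log2 fold change, Bcat1-KO over Control, of the tested genes of each list, one point a gene, filled where the adjusted p was under 0.05, with Prom1 and Neurod1 drawn at their lower bounds of 4.70 and 4.36. Red ticks are medians, -1.47 for the reactive astrocyte genes, 0.56 and 0.95 for the stem and astrocyte markers, and the grey bars show the 5th to 95th and 25th to 75th percentiles of all genes tested, -1.65 to 1.98 and -0.38 to 0.38.

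Summed markers of mural cells and fibroblasts, neurons and the oligodendrocyte lineage differed between the groups as well. Those of microglia, endothelium and ependyma had overlapping ranges. The part of other cell types in the results above was not tested. The 9 mural cell and fibroblast markers summed to 15.6 to 17.6 CPM in Bcat1-KO and 84.7 to 90.5 CPM in Control. Of these, 5 of 5 tested were lower, where 30.3% of all genes tested were lower. The knockout libraries of Acta2, Myh11 and Pdgfrb alone would not pass the filter, so the count is a description. The 4 not tested held few counts, and Dcn among them averaged 0.405 CPM in Bcat1-KO and 0.0748 CPM in Control. The 12 neuronal markers summed to 410 to 455 CPM in Bcat1-KO and 216 to 233 CPM in Control, mostly from Map2, which rose, while Rbfox3 was at 0.0719 ± 0.0415 CPM in Bcat1-KO and 33.1 ± 0.667 CPM in Control (8 and 3098 counts), with Stmn2, Nefl and Nefm at 0 in all libraries. The 10 oligodendrocyte lineage markers summed to 100 to 130 CPM in Bcat1-KO and 52.1 to 55.1 CPM in Control, with the myelin genes Mog and Mag at 0. The 10 microglial markers summed to 0.413 to 0.665 CPM in Bcat1-KO and 0.275 to 0.477 CPM in Control, with 5 at 0 in all libraries. The 8 endothelial markers summed to 0.886 to 1.33 CPM in Bcat1-KO and 1.20 to 1.40 CPM in Control, and the 8 ependymal markers to 3.07 to 4.13 CPM in Bcat1-KO and 2.59 to 3.40 CPM in Control.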

How the data were processed

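RNA was extracted on columns with DNase treatment and made into stranded poly(A) libraries, per the labels' protocols. The submitters' processing notes name STAR 2.5.3a, featureCounts and mm10, and the sources used here do not give the gene annotation. The deposited counts are raw reads per gene on each strand, and the reverse-strand counts, 96.4% to 96.5% of stranded reads, were tested. The deposited TPM values, which sum alike in each library, served for levels between genes.

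Genes were kept by edgeR 4.0.16's expression filter, scaled by TMM and compared by its quasi-likelihood test with no covariate, Benjamini-Hochberg adjusted over 14020 genes at 0.05. The SE is the log2 fold change over the root of F. The test was checked on simulated counts in which few genes changed and no library stood apart, unlike these data. Libraries gave 29543157 to 37800648 counts, so that 3 counts are 0.0794 to 0.102 CPM. No replicate pair agreed within counting noise (chi-square per gene 3.91 to 32.5).

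The markers and lists were chosen with earlier results of these data known. Values per library are given for markers past the threshold with a change of at least 2-fold and 1 CPM in a group, and for Nes, Vim, Gfap, S100b and Aldh1l1, and others where a library weighed on the value. Of each other list the 5 genes with the largest change were taken, at a mean log2 CPM of at least 0. Nr2e1, the opposite-strand test and the printed windows were chosen after their values were seen. Alternatives used DESeq2 1.42.0 and limma 3.58.1, with R 4.3.3 and Python 3.11.15.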

Additional observations from a re-analysis of the deposited data

How the results depend on the processing

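Of 816 log2 fold changes of the 28 tested markers and 20 other named genes that were tested again, 793 kept their direction and their side of the threshold, 20 lost the threshold, 1 gained it and 2 changed sign. Subtracting the median over 51 neighbours gives 48 values with no test, of which 31 moved by less than the spread between libraries, 15 moved by more and 2 changed sign. The sign changes were Nr2e1 with unstranded counts (-0.01), Msi1 with limma-trend on log2(TPM + 1) (0.01), and, after that subtraction, Nes (0.03) and Gja1 (0.09), and of these Nr2e1 alone was past the threshold in the report. The opposite-strand reads account for the Nr2e1 value, since the counts of both strands are in it. In a test against a 1.5-fold change, 1564 genes were higher and 1481 lower, as were 0 lower stem markers, 2 lower other stem genes, 9 higher other astrocyte genes, 1 higher reactive gene and 3 lower gliogenic factors; its stricter threshold sets these counts. Leaving out 1 library at a time gave 3871 to 4589 genes higher and 3846 to 4741 lower, 6 to 7 stem markers higher and 1 lower, and 11 to 12 astrocyte markers higher and 2 to 4 lower.

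The replicate numbers showed no clear pairing of the libraries. Deviations of same-numbered libraries correlated at -0.05, -0.07 and 0.16, and those of differently numbered libraries at -0.12 to 0.18. With so few libraries these values cannot show whether same-numbered libraries shared a culture or day. With a replicate block 4448 genes were higher and 4214 lower, and no marker changed its call. No batch is given in the labels. Markers below 1 CPM (Prom1, Aldh1l1, Agt and Gjb6) are limited by depth.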

Other observations

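Neighbours of 4 markers are given as values, chosen after the data were seen and with no explanation. Smpdl3a, the tested gene next to Fabp7 on chromosome 10, averaged 10.3 CPM in Bcat1-KO and 0.341 CPM in Control, a log2 fold change of 4.90 like that of Fabp7, whereas Pkib on the other side had 0.01 (adjusted p = 0.952). Scara3 and Ptk2b, the tested genes on either side of Clu on chromosome 14, were also lower, with log2 fold changes of -3.83 and -3.61, from means under 1 CPM in Control and through the control libraries alone, so with no test. Ntsr2 fell by 2.52 on the log2 scale beside Greb1, which rose by 2.62 and had 201 CPM in the knockout, against 32.7 CPM in Control (adjusted p = 6.41e-10). Mt3, Mt2 and Mt1 lie close together on chromosome 8 and had log2 fold changes of 0.93, 2.68 and 0.18. They had 3.36, 21.1 and 88.3 CPM in Bcat1-KO and 1.75, 3.28 and 77.9 CPM in Control. Whether counting divided reads among these genes was not tested.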
